A study of Mus musculus with 6 samples.

Results

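The BCL2 family decides whether the outer membrane of the mitochondrion stays intact, and 10 of its genes were followed here in naive CD4+ T cells given an activating stimulus with or without the chemokine CCL19. The genes were taken by symbol from the deposited table of 24470 genes. They comprise 3 anti-apoptotic genes (Bcl2, Bcl2l1 and Mcl1), 5 BH3-only genes (Bcl2l11, Bbc3, Pmaip1, Bad and Bid) and 2 effector genes (Bax and Bak1). All 10 were in the table, and all 10 passed the filter on low counts that left 11666 genes for testing.

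Naive CD4+ T cells are helper T cells before their first contact with antigen, and here they were purified with magnetic beads from C57BL/6J males, from the spleen together with lymph nodes draining the skin. Both groups were stimulated for 6 h by antibodies to CD3 and CD28 that had been bound to the culture surface at 1 µg/mL, in a volume of 200 µL. The CCL19 group (3 libraries) also received recombinant mouse CCL19, a ligand of the receptor CCR7, and the control group (3 libraries) received no chemokine. The sources used here give neither the age of the mice nor the dose of CCL19. Whether replicates were separate animals or separate cultures is not stated in the labels, so a p-value here measures only the spread between libraries, which may be technical.

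Anti-apoptotic members bind and restrain the effectors BAX and BAK, which otherwise form pores in the outer mitochondrial membrane and release cytochrome c. BH3-only members are the sensors of the family: each is raised or activated by a particular stress and acts by occupying the anti-apoptotic proteins or by engaging the effectors. In T cells BCL2 is maintained by interleukin-7 in the resting state, BCL-XL (the product of Bcl2l1) is induced by CD28 costimulation, and BIM (Bcl2l11) and PUMA (Bbc3) drive the death of cells deprived of cytokine. Transcription factors of the FOXO class, which are held out of the nucleus when the kinase AKT is active, are known to drive Bcl2l11 and Bbc3.

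The sequences upstream of 3 members are shown because Bbc3 and Bcl2l1 are the members whose mRNA stood lowest and highest relative to control at a level above 10 CPM, and Bcl2l11 is the other member known to be driven by FOXO factors. RefSeq starts of 9 members (GRCm38.p6, the assembly of mm10) gave 15 windows of 250 bases before a start. Pmaip1 was left out of this search. Capitals mark the FOXO core TGTTTAC on either strand, GTAAACA on the reverse. The Bbc3 window (plus strand, chr7:16310011-16310260) lies in an intron of the transcript that starts further upstream. The Bcl2l11 window (plus strand, chr2:128125788-128126037) and the Bcl2l1 window (minus strand, chr2:152831729-152831978) lie before the outermost start.
Bbc3: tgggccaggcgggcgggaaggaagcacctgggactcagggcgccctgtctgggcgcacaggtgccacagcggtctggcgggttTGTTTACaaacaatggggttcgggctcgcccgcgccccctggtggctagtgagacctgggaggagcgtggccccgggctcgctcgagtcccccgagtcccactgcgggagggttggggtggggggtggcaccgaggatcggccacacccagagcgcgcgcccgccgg
Bcl2l11: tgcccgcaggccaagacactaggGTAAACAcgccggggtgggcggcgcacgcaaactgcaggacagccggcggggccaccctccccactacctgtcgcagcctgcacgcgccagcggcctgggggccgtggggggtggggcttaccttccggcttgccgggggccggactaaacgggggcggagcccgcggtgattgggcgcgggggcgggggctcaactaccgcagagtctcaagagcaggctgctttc
Bcl2l1: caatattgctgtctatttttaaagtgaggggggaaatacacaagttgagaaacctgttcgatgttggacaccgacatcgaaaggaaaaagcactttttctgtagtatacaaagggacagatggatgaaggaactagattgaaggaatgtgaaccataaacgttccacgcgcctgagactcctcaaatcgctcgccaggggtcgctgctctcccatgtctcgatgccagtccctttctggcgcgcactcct
The core begins 167 bases before the start in Bbc3 and 227 bases before it in Bcl2l11. Bbc3 had 3 windows and Bcl2l11 had 2, and for both the printed window is the 1 that holds the core. The outermost Bbc3 window (chr7:16309333-16309582) had 0 matches. The core was found in the printed windows of Bbc3 and Bcl2l11, 2 of the 15 windows, and in 3.17% of 32851 promoter windows of the same length. The STAT motif TTCNNNGAA, searched in the same way, was in 0 of the 15 windows and in 7.02% of all windows. The Bbc3 window is 72.4% G and C and the Bcl2l11 window 72.0%, against 47.6% in the Bcl2l1 window and a median of 52.4%. A match describes these letters and is not evidence of binding.

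The 4 members with the smallest p lay in both directions, also within the BH3-only class. Bcl2l1 and Bid stood higher with CCL19 (1.38-fold and 1.26-fold), and Bbc3 and Bad stood lower (0.704-fold and 0.669-fold). Pmaip1, with few reads, had a fold change of 1.282 and overlapping groups, Bcl2l11 one of 0.929, and Bcl2, Mcl1, Bax and Bak1 had fold changes between 1.00 and 1.06. edgeR's quasi-likelihood test called 0 of the 10 members at an adjusted p under 0.05, as it called 0% of all tested genes, and limma-voom also called 0 of the 10 (0% of all). The lowest edgeR adjusted p of all tested genes was 0.0505, close above the threshold. Bcl2l1 and Bbc3 shared it with other genes, Fasl among them, so this tied value does not rank the genes. A count of 0 at this threshold does not show an absence of change. At an unadjusted edgeR p under 0.05 there were 4 members (27.5% of all tested genes), 2 higher (14.5%) and 2 lower (13.0%). DESeq2 called the same 4, against 12.2% of the genes it tested, with 2 higher (6.55%) and 2 lower (5.60%). The groups did not overlap in 5 members (29.8% of all tested genes), 2 with CCL19 above (15.3%) and 3 with CCL19 below (14.5%). The median log2 fold change of the 10 members was 0.01, and that of all tested genes was -0.00074. The authors' deposited table of changed genes lists 4 of the 10 members, with Bcl2l1 and Bid as higher and Bbc3 and Bad as lower. It lists 4.77% of all genes counted, which include genes with low counts, whereas all 10 members passed the filter. Among genes with a DESeq2 adjusted p the share was 12.2%. All 1168 genes in the authors' list were called by DESeq2 here from the same counts, so the list is not independent of that result.

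**Figure D1:**
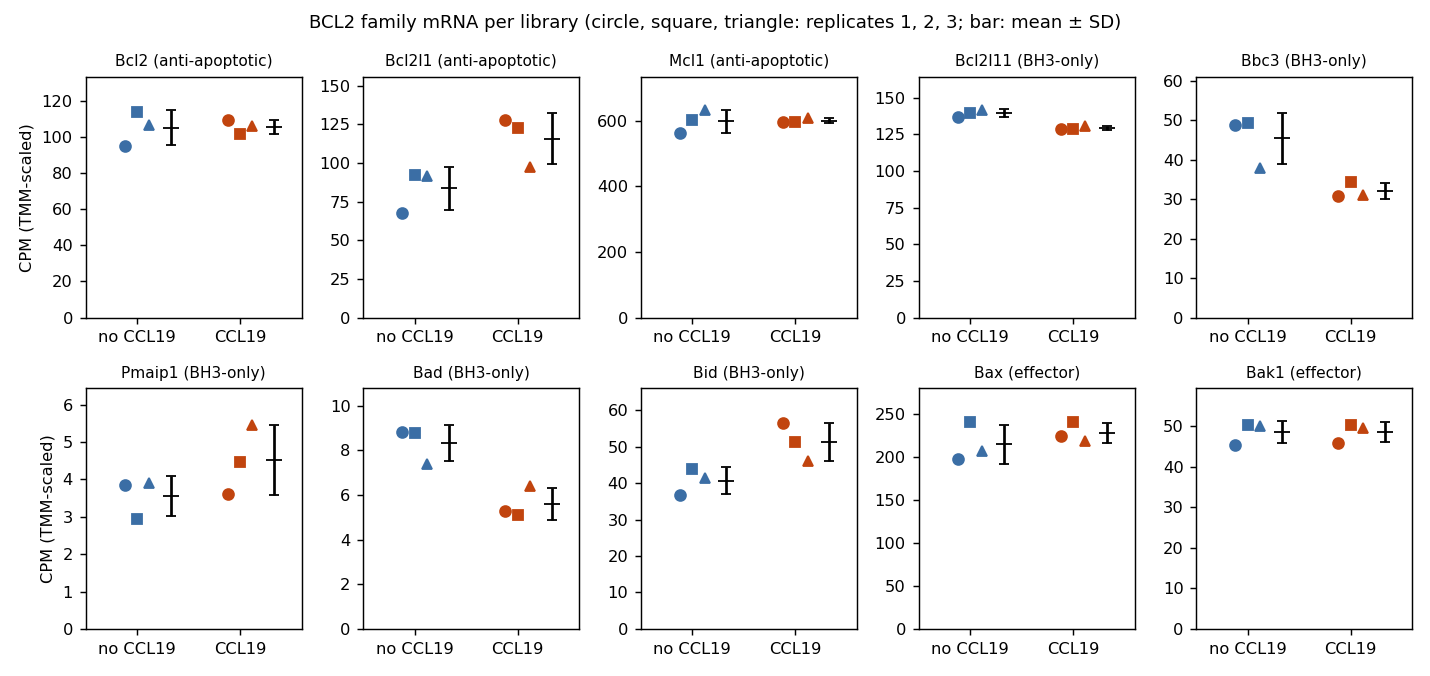
CPM of each member (vertical axis, TMM-scaled, starting at 0) in the 3 libraries without and the 3 with CCL19, with the mean and SD beside the points. The CCL19 points lie above all control points for Bcl2l1 and Bid, and below them for Bbc3, Bad and, by a small margin, Bcl2l11.

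Among the anti-apoptotic members, Bcl2l1 (NCBI Gene 12048, mm10 chromosome 2, 152758732 to 152831728, minus strand) stood at 127.6, 122.6 and 97.3 CPM (counts scaled to a common library size, with TMM factors) in CCL19 replicates 1, 2 and 3. It stood at 67.5, 92.0 and 91.3 CPM in control replicates 1, 2 and 3. Every CCL19 library was above every control library, with CCL19 replicate 3 close above the highest control and control replicate 1 the low point. The means were 115.8 ± 16.3 and 83.6 ± 14.0 CPM (SD, n = 3 each). The edgeR log2 fold change was 0.47 ± 0.12 (SE; edgeR adjusted p = 0.0505, DESeq2 adjusted p = 0.00837). DESeq2's call was lost without CCL19 replicate 1 (log2 fold change 0.39, adjusted p = 0.0993), without CCL19 replicate 2 (0.43, 0.0925) and without control replicate 1 (0.34, 0.0745). edgeR called it without CCL19 replicate 3 (0.57, adjusted p = 0.0173), a setting in which 1599 of 11871 genes were called. Reads were counted per gene, so the long survival isoform BCL-XL and the short BCL-XS, which promotes death, cannot be told apart.

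Bcl2 (NCBI Gene 12043, chromosome 1, 106538176 to 106714290, minus strand), the founding survival gene of the family, stood at 109.3, 101.7 and 106.4 CPM with CCL19 and at 94.99, 114.0 and 106.9 CPM without. The CCL19 values lay inside the range of the controls. Its log2 fold change was 0.01 ± 0.08 (SE; edgeR adjusted p = 0.968), with a 95% interval of the fold from 0.892 to 1.13. Mcl1 (NCBI Gene 17210, chromosome 3, 95658721 to 95663179, plus strand), which encodes a survival protein of short half-life, stood at 596.1, 597.2 and 608.0 CPM with CCL19. It stood at 561.9, 601.0 and 632.3 CPM without, so the controls spread to both sides of the CCL19 libraries. Its log2 fold change was 0.0049 ± 0.079 (SE; edgeR adjusted p = 0.976), with an interval of the fold from 0.892 to 1.13. For both genes the interval leaves out a change as large as that estimated for Bcl2l1, and the sign of the estimate turned under other settings.

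Among the BH3-only members, Bbc3 (NCBI Gene 170770, chromosome 7, 16309583 to 16318334, plus strand), which encodes PUMA, a p53 and FOXO target that binds every anti-apoptotic member, stood at 30.9, 34.3 and 31.0 CPM with CCL19. In the controls it stood at 48.9, 49.4 and 38.0 CPM. The CCL19 libraries were close together and all lay below the lowest control, replicate 3. The log2 fold change was -0.51 ± 0.10 (SE; edgeR adjusted p = 0.0505, DESeq2 adjusted p = 0.00256). Without control replicate 1 DESeq2 gave Bbc3 no adjusted p (log2 fold change -0.45), and without each of the other 5 libraries it still called the gene. edgeR called it without CCL19 replicate 3 (-0.49, adjusted p = 0.0195) and without control replicate 3 (-0.62, 0.0420). Without control replicate 3 it called 513 of 11872 genes.

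Base composition moved with the fold changes, and Bbc3 is the member it touches most. Across 11439 tested genes Spearman's rho of log2 fold change against the GC content of the transcript was -0.318, given as a description since genes are not independent. The Bbc3 transcript is 65.2% GC, in the highest of 10 GC classes, whose median log2 fold change was -0.16. With a per-library offset for GC content and length, the Bbc3 log2 fold change was -0.29 (edgeR adjusted p = 0.0976), against -0.51 without it. Bax, the other member in that class (63.6% GC), had 0.28 with the offset (edgeR adjusted p = 0.0976) against 0.08 without it. Bcl2l1 and Bad had the same edgeR adjusted p with the offset, so this tied value does not rank the genes. The offset values of Bcl2l1 (0.54), Bid (0.33) and Bad (-0.47) lay within 1.5 times of those without it.

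Bad (NCBI Gene 12015, chromosome 19, 6941861 to 6951905, plus strand) encodes a sensor that is silenced by phosphorylation downstream of growth factors and AKT. It was a low transcript, with 88, 136 and 138 reads in the CCL19 libraries and 214, 241 and 136 in the controls. Scaled to depth, it stood at 5.30, 5.11 and 6.40 CPM with CCL19 and at 8.85, 8.77 and 7.38 CPM without, and the groups did not overlap. The log2 fold change was -0.58 ± 0.15 (SE; edgeR adjusted p = 0.0527, DESeq2 adjusted p = 0.0264). DESeq2 gave Bad no adjusted p without CCL19 replicate 1, CCL19 replicate 2, control replicate 1 or control replicate 2, where its log2 fold change was -0.55, -0.51, -0.54 and -0.54. edgeR called it without CCL19 replicate 3 (-0.69, adjusted p = 0.0187) and without control replicate 3 (-0.66, adjusted p = 0.0476). Bad shares 524 bp of exon with Gpr137 on the opposite strand, and the sources used here do not give the strand setting of the counting, so its counts are uncertain. Gpr137 itself averaged 17.3 ± 2.10 CPM with CCL19 and 22.7 ± 3.18 CPM in the controls (SD, n = 3 each; log2 fold change -0.39, DESeq2 adjusted p = 0.0475), and its part in the Bad value was not tested.

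Bid (NCBI Gene 12122, chromosome 6, 120893119 to 120916820, minus strand) links death receptors to mitochondria, since caspase-8 cuts its protein into an active fragment. It stood at 56.4, 51.3 and 46.2 CPM with CCL19 and at 36.8, 43.9 and 41.5 CPM without. The groups did not overlap, and CCL19 replicate 3 lay close above control replicate 2. The log2 fold change was 0.33 ± 0.10 (SE; edgeR adjusted p = 0.061, DESeq2 adjusted p = 0.0298). The DESeq2 call was lost without CCL19 replicate 1 (0.26, adjusted p = 0.207), without CCL19 replicate 2 (0.33, 0.140) and without control replicate 3 (0.35, 0.0529). Without control replicate 1 DESeq2 gave no adjusted p (0.26), and edgeR called the gene without CCL19 replicate 3 (0.39, adjusted p = 0.0221). Bid shares 628 bp of exon with Bcl2l13, a BCL2-like gene on the opposite strand, so its counts are uncertain too. Bcl2l13 averaged 75.8 ± 3.15 CPM with CCL19 and 73.8 ± 2.18 CPM in the controls (SD, n = 3 each; log2 fold change 0.04, DESeq2 adjusted p = 0.785). The log2 ratio of Bid to Bcl2l13 was higher in all 3 CCL19 libraries than in all 3 controls. Since Bcl2l13 differed little, this ratio restates the Bid change. The part of the shared exon in the Bid value was not tested.

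Bcl2l11 (NCBI Gene 12125, chromosome 2, 128126038 to 128162547, plus strand) encodes BIM, the main killer of activated T cells that lose cytokine support. Its libraries agreed most closely, with 128.6, 128.9 and 130.7 CPM with CCL19 and 136.7, 139.6 and 141.8 CPM without. All CCL19 libraries lay below all controls, yet the difference was small, with a log2 fold change of -0.11 ± 0.07 (SE; edgeR adjusted p = 0.316, DESeq2 adjusted p = 0.348) and an interval of the fold from 0.842 to 1.02. Over every alternative run the log2 fold change stayed between -0.12 and -0.09. Pmaip1 (NCBI Gene 58801), which encodes NOXA, a p53 target that neutralises MCL1, was the rarest member, with 60, 119 and 118 reads with CCL19 and 93, 81 and 72 without. At 3.61, 4.47 and 5.47 against 3.84, 2.95 and 3.91 CPM the groups overlapped. Its log2 fold change of 0.36 ± 0.20 (SE; edgeR adjusted p = 0.266) had a wide interval of the fold, 0.950 to 1.73, which holds the change estimated for Bcl2l1. The estimate was 0.20 with CCL19 replicate 3 left out and 0.23 with control replicate 2 left out.

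The effectors Bax and Bak1, whose proteins form the pores, differed little without an offset for GC content and length. Bax (NCBI Gene 12028, chromosome 7, 45461695 to 45466898, minus strand) stood at 224.4, 239.8 and 217.7 CPM with CCL19 and at 197.2, 240.3 and 206.1 CPM without. Both groups had their highest value in replicate 2, and the ranges overlapped (log2 fold change 0.08 ± 0.09 SE, edgeR adjusted p = 0.554). Bak1 (NCBI Gene 12018, chromosome 17, 27019812 to 27028626, minus strand) stood at 45.8, 50.2 and 49.7 CPM with CCL19 and at 45.4, 50.2 and 50.0 CPM without. Its values lay in the same range in both groups (log2 fold change 0.0024 ± 0.081 SE, edgeR adjusted p = 0.988; interval of the fold 0.889 to 1.13). With the GC and length offset the log2 fold change of Bak1 was 0.10 and that of Bax was 0.28 (edgeR adjusted p = 0.0976 for Bax). Bak1 shares 614 bp of exon with Ggnbp1 on the opposite strand, Bcl2 shares 558 bp with D630008O14Rik on the opposite strand and Bax 192 bp with Gm45808 on the same strand, so these counts are uncertain as well. Ggnbp1 averaged 1.72 ± 0.509 CPM with CCL19 and 2.28 ± 0.101 CPM in the controls (SD, n = 3 each), far below Bak1.

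**Figure D2:**
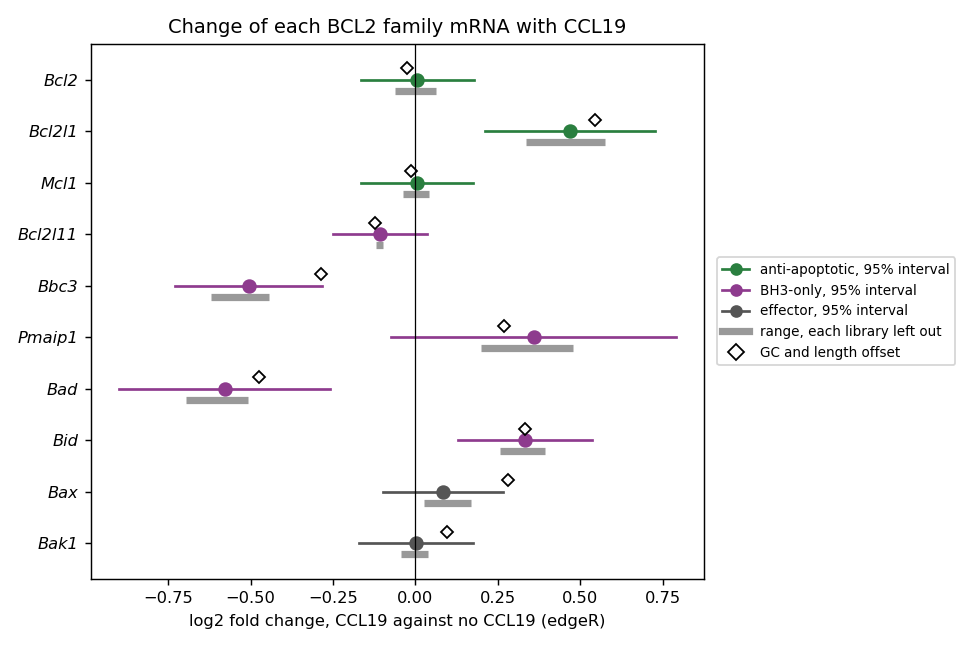
edgeR log2 fold change of each member (points, coloured by role) with its 95% interval, the range when each library is left out (grey bars) and the value with a GC and length offset (diamonds). Bcl2l1 and Bid lie to the right of 0 and Bbc3 and Bad to the left in all 3 displays, and the diamonds of Bbc3 and Bax lie to the right of their points by about 0.2.

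To set genes beside each other, CPM was divided by the length of the merged exons of each gene in GENCODE M21. Without CCL19 the level per kb was highest for Mcl1 (175 ± 10.3 CPM per kb, SD, n = 3) and Bax (136 ± 14.4). Next came Bbc3 (21.4 ± 3.04), Bak1 (20.2 ± 1.14), Bcl2l1 (18.2 ± 3.04) and Bcl2l11 (17.4 ± 0.315), whose neighbours in this order overlapped over the 3 libraries. Bcl2 (11.5 ± 1.05) and Bid (11.5 ± 1.02) overlapped as well, and Bad (3.26 ± 0.323) and Pmaip1 (1.31 ± 0.196) stood apart below. With CCL19 Bcl2l1 was at rank 3 (25.2 ± 3.55 CPM per kb) and Bbc3 at rank 6 (15.1 ± 0.915). With the longest coding transcript as the length, Bax (195 CPM per kb without CCL19) stood above Mcl1 and Bcl2l1 (32.6) above Bcl2l11 (27.7) and Bbc3 (25.1), so the order within these groups depends on the length used.

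**Figure D3:**
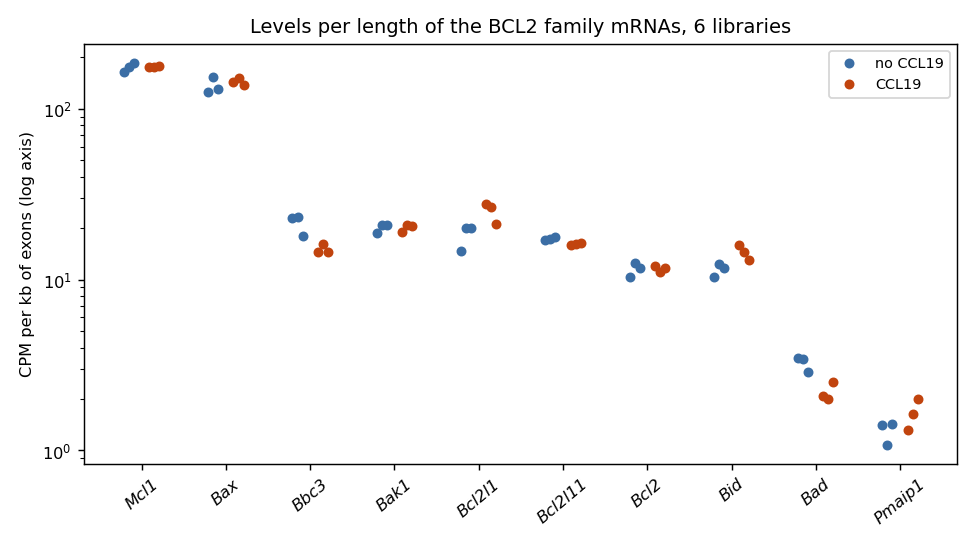
CPM per kb of merged exons (log axis) of the 10 members in each library without and with CCL19, ordered by the control mean. Mcl1 and Bax stand above all others, and Bad and Pmaip1 below; Bcl2l1 points shift up and Bbc3 points down with CCL19.

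Mcl1 supplied most of the summed anti-apoptotic level per kb, 82.7% ± 1.55 with CCL19 and 85.5% ± 1.19 without (SD, n = 3). The share of Bcl2l1 was 11.9% ± 1.58 with CCL19 and 8.86% ± 0.974 without, and the groups did not overlap. Bcl2 supplied 5.44% ± 0.187 and 5.61% ± 0.315. Within the BH3-only class, Bbc3 made up 30.5% ± 1.49 of the summed level with CCL19 and 38.9% ± 3.71 without, again without overlap, while Bcl2l11 made up 32.6% ± 0.933 and 31.8% ± 2.18. The summed level of the class was 49.8, 50.3 and 48.4 CPM per kb with CCL19 and 55.3, 57.5 and 51.5 without. That of the anti-apoptotic class was 214, 213 and 211 with CCL19 and 190, 208 and 217 without, and that of the effectors was 161, 173 and 159 against 144, 173 and 152. These shares and sums, and ratios of the sums, depend on the length used. With the longest coding transcript as the length, Bcl2l11 (27.7 CPM per kb without CCL19) stood above Bbc3 (25.1). Bcl2l1 then stood at 32.6 CPM per kb without CCL19, against 18.2 with merged exons. The sums are descriptions over genes chosen as a set and were not tested.

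Ratios of counts within a library do not depend on how libraries are scaled, and they were used to set survival members against death members. They still carry the trend with GC content, and no offset was applied to them. With the GC and length offset, the edgeR log2 fold change of Bbc3 was -0.29, against -0.51 without it. The log2 ratio of Bcl2 to Bcl2l11 was -0.23, -0.34 and -0.30 with CCL19 and -0.53, -0.29 and -0.41 without, and the groups overlapped. For Bcl2l1 to Bcl2l11 it was -0.01, -0.07 and -0.43 with CCL19 against -1.02, -0.60 and -0.64, so that every CCL19 library lay higher. The widest separations involved Bbc3 and Bad, the members with the lowest fold changes, and so restate the values of the single genes. The log2 ratio of Bcl2l1 to Bbc3 was 2.05, 1.84 and 1.65 with CCL19 and 0.47, 0.90 and 1.26 without, a difference of 0.97. That of Bcl2l1 to Bad was 4.59, 4.58 and 3.93 against 2.93, 3.39 and 3.63, a difference of 1.05. By contrast the log2 ratio of Bcl2l1 to Bid, 2 genes that stood higher together, was 1.18, 1.26 and 1.07 against 0.88, 1.07 and 1.14 and overlapped. The log2 ratio of Mcl1 to Pmaip1 was 7.37, 7.06 and 6.80 with CCL19 and 7.19, 7.67 and 7.34 without. Its difference of -0.33 had the opposite sign, and the groups overlapped. The log2 ratio of the summed anti-apoptotic level per kb to that of all BH3-only and effector members was 0.02, -0.07 and 0.02 with CCL19 and -0.07, -0.15 and 0.09 without, which also overlapped. Against the BH3-only members alone, without Bax and Bak1, it was 2.10, 2.08 and 2.12 with CCL19 and 1.78, 1.86 and 2.07 without. Every CCL19 library lay higher, but CCL19 replicate 2 was only just above control replicate 3. None of these ratios was tested, since the members were chosen together.

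**Figure D4:**
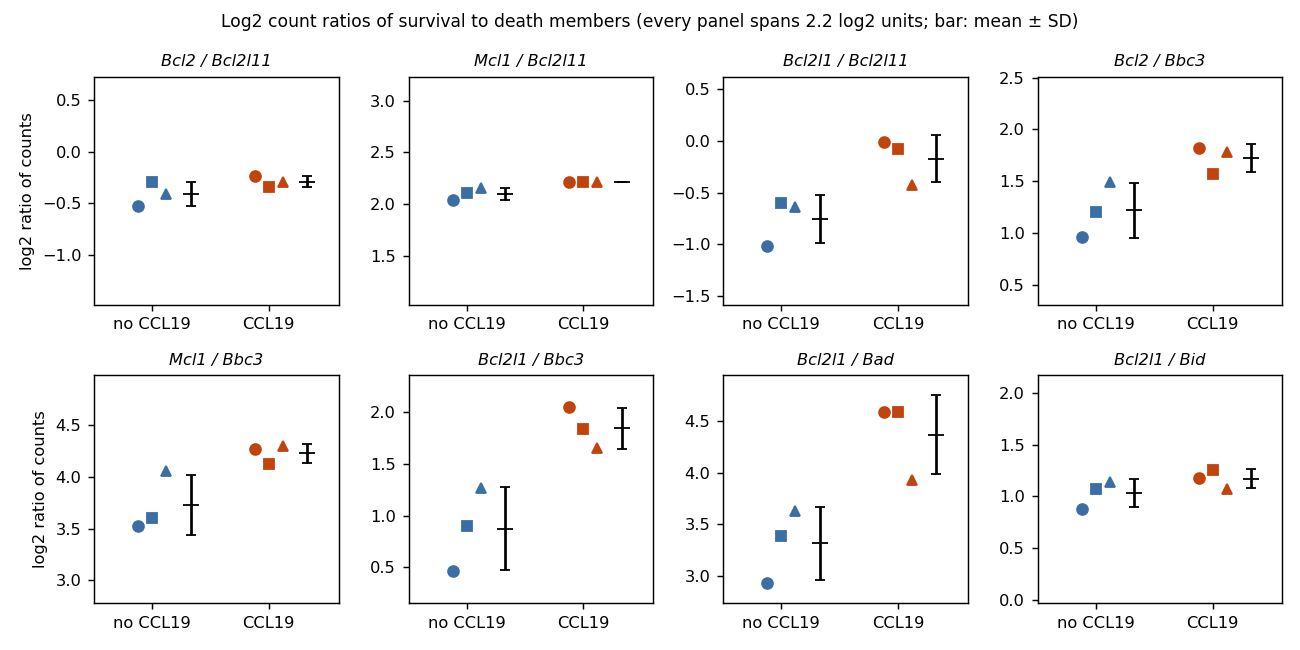
Log2 ratio of counts of a survival member to a death member in each library, with the mean and SD of each group beside the points; every panel spans 2.2 log2 units. The groups separate for every pair with Bbc3 or Bad and for Bcl2l1 and Mcl1 against Bcl2l11, and overlap for Bcl2 against Bcl2l11 and for Bcl2l1 against Bid.

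Other transcripts tracked members over the 6 libraries, many of them in the case of Bcl2l1. Pearson's r of log2 CPM, given as a description over 6 libraries that share 1 contrast, was highest for Bcl2l1 with Rae1 (r = 0.999), a nuclear pore and mRNA export factor, and with Slc9b2 (r = 0.999). Among 7467 candidates 544 had r of at least 0.95 with Bcl2l1, and 3 did with Bcl2, 3 with Mcl1 and 10 with Bcl2l11. Among the members themselves, r with Bcl2l1 was highest for Bid (0.975) and lowest for Bad (-0.897). The closest to Bcl2 were Lratd2 (r = 0.959) and Nfrkb (r = 0.953), to Mcl1 Zfp84 (r = 0.981) and the calcineurin subunit Ppp3cc (r = 0.979), and to Bcl2l11 Dnajb12 (r = 0.977) and Galnt11 (r = 0.973).

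The rest of the family and the pathway around it were read from 7 lists, on each of which edgeR called 0 genes. Their counts stand beside those over all tested genes, of which DESeq2 called 12.2% (6.55% higher, 5.60% lower) and 27.5% had an unadjusted edgeR p under 0.05 (14.5% higher, 13.0% lower). Of 15 further BCL2-like genes 10 were tested, with a median log2 fold change of -0.13, and DESeq2 called 1 higher and 0 lower (edgeR called 0; 2 higher and 1 lower at an unadjusted p under 0.05), against 12.2% and 27.5% of all genes. That gene was Bcl2a1d, one of the near-identical A1 survival genes, at 22.9 ± 2.27 CPM with CCL19 and 17.4 ± 1.25 without (log2 fold change 0.39 ± 0.11 SE, DESeq2 adjusted p = 0.0268). Its copy Bcl2a1b stood at 109 ± 5.03 and 90.7 ± 13.6 CPM (0.26, DESeq2 adjusted p = 0.0815), and reads of the copies may have been split between them, so both are uncertain. Bcl2l15 was near the limit of detection at 0.138 ± 0.0796 CPM with CCL19 and 0.557 ± 0.0566 without, and DESeq2 gave it no adjusted p.

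Downstream of the mitochondrion, in the list of cytochrome c, the apoptosome and caspases, DESeq2 called 0 of 22 genes higher and 1 lower, with a median log2 fold change of -0.02 (edgeR called 0; 1 higher and 1 lower at an unadjusted p under 0.05), against 12.2% and 27.5% of all genes. Casp9, the initiator caspase of the apoptosome, stood at 21.8 ± 4.03 CPM with CCL19 and 28.1 ± 1.22 without (DESeq2 adjusted p = 0.0491). Cycs, which encodes cytochrome c, stood at 36.9 ± 2.61 and 32.0 ± 1.93 CPM (DESeq2 adjusted p = 0.182), and the inhibitor of apoptosis Birc5 at 1.22 ± 0.331 and 1.91 ± 0.599 CPM.

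Of the 13 genes of the death receptor arm, which feeds into Bid, 9 had a log2 fold change above 0 and the median was 0.21. DESeq2 called 2 higher and 0 lower (edgeR called 0; 6 higher and 1 lower at an unadjusted p under 0.05). Over all genes DESeq2 called 6.55% higher and 5.60% lower, and the unadjusted shares were 14.5% and 13.0%. Fasl, the ligand of the death receptor FAS, stood at 56.3, 51.0 and 48.6 CPM with CCL19 and at 35.6, 42.6 and 42.7 without (DESeq2 adjusted p = 0.0161). Ripk3, a kinase of necroptosis, stood at 55.0 ± 2.54 and 44.4 ± 5.11 CPM (DESeq2 adjusted p = 0.0377), and the adaptor Tradd at 29.5 ± 1.27 and 36.1 ± 5.19 CPM (DESeq2 adjusted p = 0.078). The receptor gene Fas, also on the p53 list, stood at 29.3 ± 1.24 and 24.6 ± 1.77 CPM (DESeq2 adjusted p = 0.105).

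Bbc3, Pmaip1 and Bax are p53 targets, and on the list of p53 and its other targets DESeq2 called 1 of 15 tested genes higher and 1 lower, with a median log2 fold change of 0.06 (4 higher and 2 lower at an unadjusted edgeR p under 0.05), against 12.2% and 27.5% of all genes. Cdkn1a, the cell cycle inhibitor p21, stood at 91.7, 89.8 and 76.3 CPM with CCL19 and at 48.5, 71.4 and 66.6 without (DESeq2 adjusted p = 0.00972). Sesn1, a stress-response gene, stood at 121 ± 17.8 and 154 ± 22.1 CPM (DESeq2 adjusted p = 0.0332), and its groups overlapped. On the list of FOXO factors, AKT and the 14-3-3 proteins that hold phosphorylated BAD and FOXO, DESeq2 called 1 of 15 genes higher and 2 lower, with a median of 0.01 (4 higher and 4 lower at an unadjusted edgeR p under 0.05), against the same 12.2% and 27.5%. Pik3ip1, an inhibitor of phosphoinositide 3-kinase, stood at 120, 152 and 160 CPM with CCL19 and at 222, 173 and 182 without (DESeq2 adjusted p = 0.00936). Foxo4 stood at 39.4 ± 8.12 and 52.0 ± 6.57 CPM (DESeq2 adjusted p = 0.0377), and the 14-3-3 gene Ywhae at 315 ± 11.6 and 265 ± 16.5 CPM (DESeq2 adjusted p = 0.0231).

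Cytokine receptors that share the common gamma chain sustain Bcl2 and Mcl1, and of 15 tested genes of that signal DESeq2 called 2 higher and 1 lower, with a median log2 fold change of 0.01 (3 higher and 1 lower at an unadjusted edgeR p under 0.05), against 12.2% and 27.5% of all genes. The higher genes were the receptor chain Il2rg, at 1021 ± 36.8 and 878 ± 46.1 CPM (DESeq2 adjusted p = 0.0339), and the feedback inhibitor Cish, at 97.3 ± 12.4 and 74.3 ± 15.7 CPM (0.0432), whose groups overlapped. The lower one was the transcription factor gene Stat5b, at 393 ± 27.3 and 461 ± 22.5 CPM (0.0370). Of 16 tested genes that act on the stability or location of members, DESeq2 called 0 (edgeR called 0; 3 higher and 0 lower at an unadjusted p under 0.05), with a median of 0.06, against the same shares of all genes. Mapk8, which encodes the kinase JNK1, stood at 54.2 ± 3.48 and 45.4 ± 1.33 CPM (DESeq2 adjusted p = 0.0554). The ubiquitin ligase genes Cul5 and Marchf5 stood at 58.6 ± 3.94 against 50.0 ± 5.52 and 54.5 ± 5.12 against 47.2 ± 3.23 CPM.

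**Figure D5:**
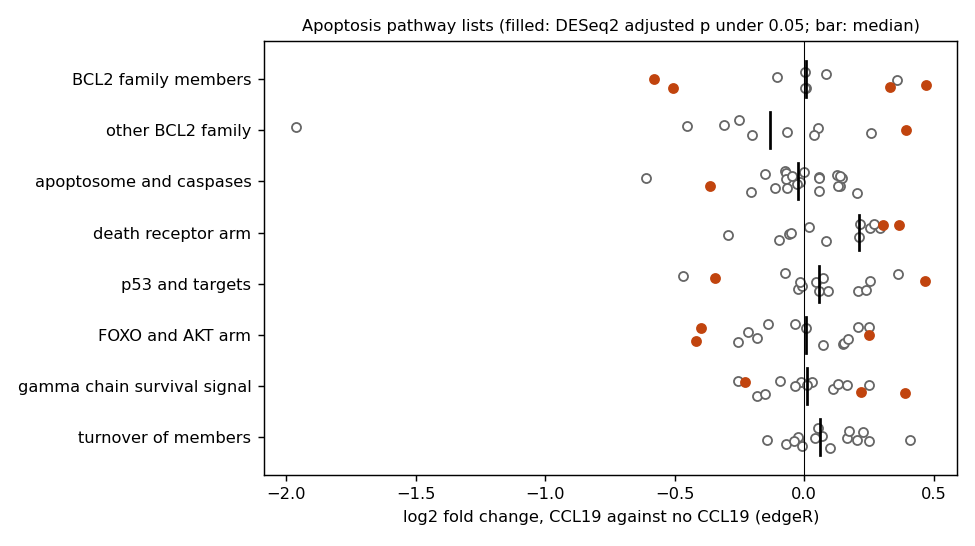
edgeR log2 fold change (horizontal axis) of each tested gene on the BCL2 family and 7 pathway lists; filled points have a DESeq2 adjusted p under 0.05 and vertical bars are medians. The family has called genes on both sides of 0, and the death receptor list has the highest median, 0.21.

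The libraries held between 16978736 and 27429898 counts. T cell markers were present in every library (summed 5139 to 5933 CPM with CCL19 and 5855 to 6686 without). Of the 11 markers 4, Cd247, Cd4, Tcf7 and Ccr7, were lower with CCL19 without overlap, against 14.5% of all tested genes. Summed markers were 32.9 to 37.1 against 33.7 to 41.1 CPM for B cells (8 genes), 11.3 to 18.6 against 13.5 to 19.6 for myeloid cells (11), 18.0 to 21.0 against 18.6 to 21.8 for NK cells (6), 12.4 to 17.2 against 14.56 to 14.98 for CD8 T cells (2) and 15.6 to 16.8 against 11.8 to 18.5 for erythroid cells (6). No marker was at 0 in every library, and 2 of the 8 B cell genes, Cd79a and Blk, were lower with CCL19 without overlap (14.5% of all tested genes). The regulatory T cell list summed to 376 to 476 against 256 to 330 CPM. On it only Il2ra, which activated T cells also express, was higher without overlap (15.3% of all tested genes), and Foxp3, Ikzf2 and Ctla4 overlapped. Genes of the mitochondrial genome took 0.941% to 1.19% of counts with CCL19 and 0.811% to 1.05% without. The part of these shifts in the results was not tested, and in bulk RNA fewer cells of a type and less RNA per cell cannot be told apart.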

How the data were processed

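Messenger RNA of 6 samples (3 with CCL19, 3 without; groups and replicate numbers from the titles) was sequenced from Illumina TruSeq libraries, per the labels. Reads were aligned to mm10 with STAR 2.5 and counted with featureCounts 1.5.0-p1, per the submitters' processing notes; the sources used here do not give the strand setting, the handling of multiply mapped reads or the annotation release. Values in the deposited table are unnormalized read counts. A second deposited table names genes the authors found changed and their direction, with no threshold stated. The submitters' processing notes name DESeq2 1.28.1.

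All tests were fitted on the whole table with edgeR 4.0.16 (filterByExpr, TMM, quasi-likelihood F test) in R 4.3.3, with Benjamini-Hochberg adjustment over 11666 genes and a threshold of 0.05. DESeq2 1.42.0 (9613 genes with an adjusted p) and limma 3.58.1 were alternatives. The SE is the absolute log2 fold change divided by the square root of F. Log2 CPM used a prior count of 2. GC content and lengths came from GENCODE M21 (11439 tested genes, 98.05%), and the offset used natural splines with 5 degrees of freedom each. Tests were tried on simulated counts. The members and lists were chosen with earlier results of these data known. All 10 members are named, with the 3 tested genes of smallest edgeR p from each of 7 pathway lists and the 2 genes most like Bcl2, Bcl2l1, Mcl1 and Bcl2l11 (mean log2 CPM of at least 4). Gpr137, Bcl2l13, Ggnbp1, D630008O14Rik and Gm45808, which overlap members, and the marker genes named were outside this rule and chosen after their values were seen. Plots used matplotlib 3.10.9 (Python 3.11.15).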

Additional observations from a re-analysis of the deposited data

How the results depend on the processing

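Bcl2l1 and Bid stood higher and Bbc3 and Bad lower under each of the 21 alternatives run for each gene. Pmaip1 and Bax (higher) and Bcl2l11 (lower) also kept their direction in each of them, though none called these genes. edgeR called 0 of the 10 members and 0 of 11666 genes, and DESeq2 called 4 members and 1168 of 9613 genes (12.2%). With no filter on low counts edgeR called 4 members and 1600 of 15905 genes. With a robust prior it called 3 members (without Bid) and 529 of 11666 genes. With each library left out, in edgeR and DESeq2, between 0 and 4 members and between 0 and 1704 genes were called. Single libraries decided this. Without CCL19 replicate 3 edgeR called 1599 of 11871 genes and 4 members, and without control replicate 3 it called 513 of 11872 genes and 2 members. DESeq2 called 55 of 5967, 123 of 8013 and 105 of 3287 genes without CCL19 replicate 1, CCL19 replicate 2 or control replicate 1. The cause was not tested. The direction of the members nearest to 0 turned. Bcl2 had a log2 fold change of -3e-04 with a filter of 1 CPM in 3 libraries, -0.025 with the GC and length offset and -0.0212 with the offset and replicate block, and -0.0647 to 0.0687 with a library left out. Mcl1 had -0.0019, -0.0123 and -0.0111 under the same settings, and -0.0399 to 0.0503 with a library left out. Bak1 had -0.0021 with no filter and -0.0044 with 1 CPM in 3 libraries, and -0.0457 to 0.0386 with a library left out, and its value farthest from 0 was 0.0963 with the offset. The log2 ratio of Bcl2 to Bcl2l11 differed by 0.12 between the groups, 0.06 to 0.18 with a library left out, and the ratio of summed levels by 0.03. Same-numbered libraries did not deviate together (r across genes of -0.164, 0.0814 and -0.0207), so the numbers were not taken to pair them. With the replicate block edgeR called 0 members and 0 genes, with or without the offset. Pmaip1 and Bad had the fewest reads of the members, 60 to 241 a library, and the precision of their values is bounded by these counts.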
